A study of Mus musculus with 8 samples.

Results

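The 10 genes described here mark dendritic cells or their maturation: the growth factor receptor gene Flt3, the transcription factor genes Zbtb46 and Batf3, the migration and maturation genes Fscn1 and Ccr7, the chemokine genes Ccl17 and Ccl22, and the surface receptor genes Cd209a, Clec9a and Xcr1. They were chosen by name, and all 10 were found among the 55450 genes of the deposited count table, of which 16467 were tested. Expression was measured by 3′ mRNA sequencing in 3 libraries of microglia, the resident macrophages of the brain, and 5 libraries of bone marrow-derived macrophages (BMDM), both sorted from tumors of GL261, a mouse glioma line, growing in the brains of wild-type mice. Both gates took F4/80-positive, CD11b-positive cells without Ly6G and with little or no Ly6C; the microglia gate was low for CD45 and low or negative for CD49d, and the BMDM gate was CD45-positive and high for CD49d. Neither the strain, sex and age of the mice nor whether each library came from its own animals is given in the sources used here, so p-values describe the spread between these libraries. No gate selected dendritic cells, and markers that define them at the protein level, such as CD11c, were not part of the sort.

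Dendritic cells take up antigen and present it to T cells. Conventional dendritic cells arise from precursors that depend on the receptor FLT3, and Zbtb46 is expressed in this lineage. The type 1 subset needs the factor BATF3 and carries CLEC9A, which binds actin exposed by dead cells, and XCR1, the receptor for the chemokine XCL1. The type 2 subset and dendritic cells that derive from monocytes include cells that express Cd209a. When dendritic cells mature, they make fascin (Fscn1), an actin-bundling protein, and CCR7, the receptor that guides them to lymph nodes along CCL19 and CCL21. CCL17 and CCL22 attract cells that carry CCR4. Several of these genes are not restricted to dendritic cells: T cells also express Ccr7, for example, and macrophages can express Ccl17 and Ccl22.

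Library totals ran from 5890406 counts (BMDM 1) to 16659154 (microglia 1). The gene model Gm42418, which covers ribosomal RNA sequence, accounted for 34.0% to 47.0% of microglia counts. Its share was 14.8% to 19.8% in BMDM 1 to 3 but 41.2% and 48.9% in BMDM 4 and BMDM 5, so results that rest on these libraries are also given for BMDM 1 to 3 alone. In that subset the share was below that of every microglia library, so group and share cannot be told apart there. By edgeR, of 10 microglia markers, 7 were lower in BMDM and 0 higher, and of 10 markers of monocyte-derived macrophages, 8 were higher and 0 lower. Both lists were chosen with earlier results of these data known, so these counts are no check of the labels.

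In BMDM, Ccr7 was higher and Fscn1 was lower than in microglia, and no other member passed the test. Of the 10 members, 8 had enough counts to be tested (Ccl22 and Cd209a did not), and 1 of the 8 was higher and 1 lower in the quasi-likelihood test of edgeR, with p-values adjusted over all genes by the Benjamini-Hochberg method and a threshold of 0.05. Across all 16467 genes tested, 1.93% were called, 1.11% higher and 0.814% lower. At an unadjusted p under 0.05, the same members passed, beside 6.49% of all genes higher and 7.27% lower. The median log2 fold change was 2.50 over the 8 tested members and 0.08 over all genes tested, but low-count members enter the test only through the libraries in which they are high, so this median describes those 8 alone. The other 6 tested members, Flt3, Zbtb46, Batf3, Ccl17, Clec9a and Xcr1, had positive fold changes, as had 53.1% of all genes tested, with standard errors of 0.46 to 2.27 on the log2 scale. Of the 10 members, 1 (Fscn1) had all BMDM libraries below all of microglia and 0 had them all above, beside 8.66% and 4.32% of all genes. The calls of Ccr7 and Fscn1 were also made by DESeq2, which called 5.43% of all genes (3.47% higher, 1.97% lower), and by edgeR without a filter on low counts (2.31%, of which 1.29% higher and 1.02% lower). With limma-voom 1 of 8 members was called, Fscn1, beside 2.37% of all genes (0.856% higher, 1.52% lower). Since the libraries are sorted populations measured in bulk, fewer cells of a type and less RNA per cell cannot be told apart.

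**Figure D1:**
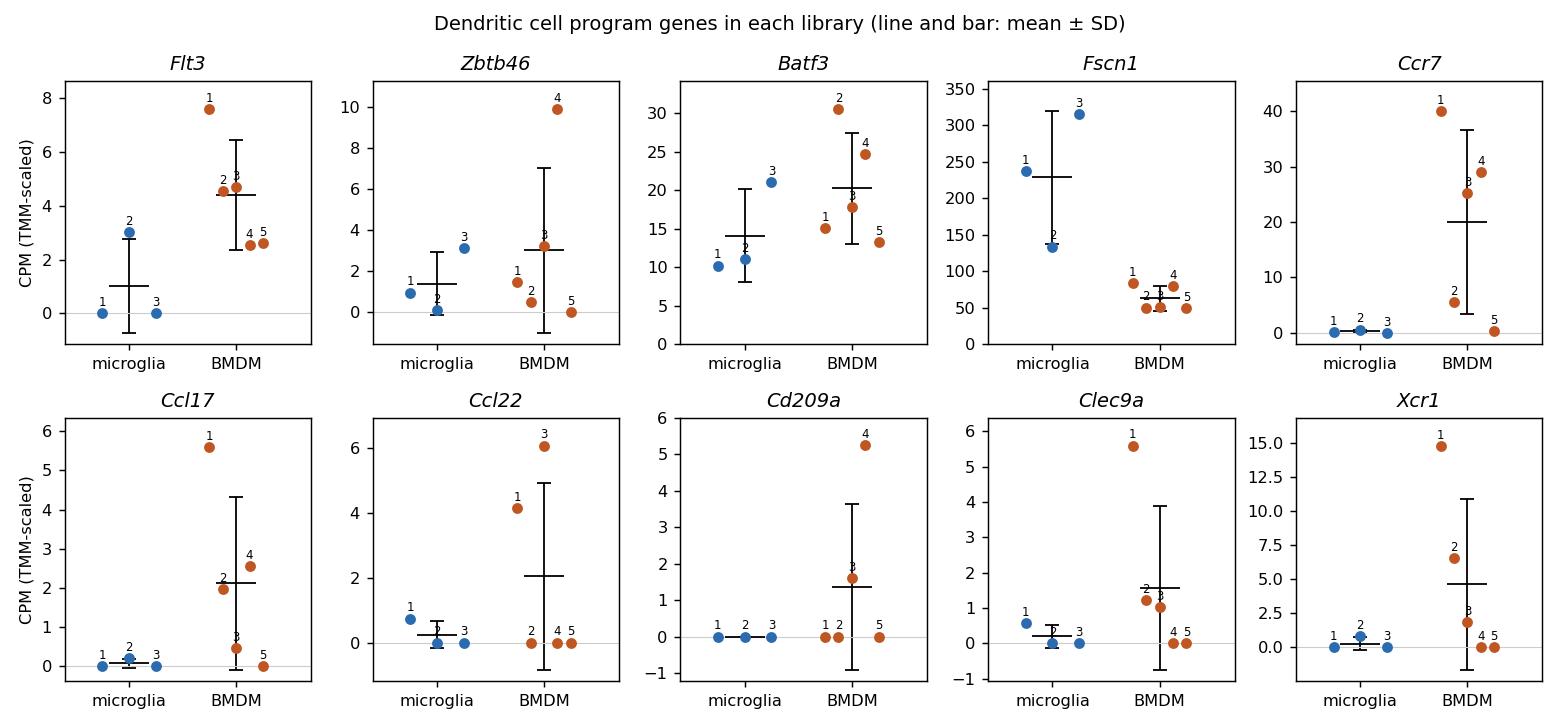
TMM-scaled CPM (counts scaled to a common library size; linear axes that differ between panels) of the 10 genes in 3 microglia (blue) and 5 BMDM (orange) libraries; numbers beside the points are the replicate numbers, and lines with bars give the mean and SD of each group. Fscn1 separated the groups without overlap, while Ccr7, at 0.276 CPM in BMDM 5, and the remaining genes overlapped.

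Promoter sequences are shown for Fscn1, the member that separated the groups, and for Clec9a and Xcr1, the markers of type 1 cells that were counted in the same 3 BMDM libraries. RefSeq promoters of build GRCm38.p6, running from 250 bases before to 50 after the annotated start, were matched for 9 of the 10 members. They lie at chr5:142960105-142960404 on the plus strand (Fscn1), chr6:129408612-129408911 on the plus strand (Clec9a) and chr9:123861980-123862279 on the minus strand (Xcr1). All are written 5′ to 3′ along the strand of the gene, and capitals mark a match to the motifs searched.
Fscn1: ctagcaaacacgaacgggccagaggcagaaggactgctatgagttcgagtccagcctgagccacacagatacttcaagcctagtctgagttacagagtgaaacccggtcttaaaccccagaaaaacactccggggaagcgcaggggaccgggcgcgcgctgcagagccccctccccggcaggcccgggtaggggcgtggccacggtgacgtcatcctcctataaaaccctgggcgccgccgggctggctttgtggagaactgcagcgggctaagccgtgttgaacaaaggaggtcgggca
Clec9a: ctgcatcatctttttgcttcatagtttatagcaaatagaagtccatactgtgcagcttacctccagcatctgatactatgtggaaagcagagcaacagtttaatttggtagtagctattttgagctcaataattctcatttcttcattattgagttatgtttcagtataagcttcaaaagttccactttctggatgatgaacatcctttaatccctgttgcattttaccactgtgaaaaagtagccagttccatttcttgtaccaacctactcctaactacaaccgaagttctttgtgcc
Xcr1: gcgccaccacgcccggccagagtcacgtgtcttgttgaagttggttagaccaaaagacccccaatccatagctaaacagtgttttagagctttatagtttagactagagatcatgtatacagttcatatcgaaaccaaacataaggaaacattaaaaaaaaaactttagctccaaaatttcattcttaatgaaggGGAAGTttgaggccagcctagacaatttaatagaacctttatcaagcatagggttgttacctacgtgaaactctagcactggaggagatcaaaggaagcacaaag
Searches on both strands covered 4 motifs: the core GGAAGT of sites for ETS factors such as PU.1, the AP-1 site TGANTCA, an IRF element of GAAA and GAAA separated by any 2 bases, and a kappa B site of GGGA and TTCC separated by any 2 bases. No match overlapped another. Of the 3 windows shown, the Xcr1 promoter alone held a match, 1 ETS core on the plus strand of the window starting 55 bases before the start. Among all 32851 promoters of that length, 23.8% held the ETS core, 7.81% the AP-1 site, 3.44% the IRF element and 1.47% the kappa B site. Of the 9 member promoters, 5 held the ETS core (Flt3, Batf3, Ccl22, Cd209a and Xcr1), 1 held the AP-1 site (Zbtb46), and 0 held the IRF element or the kappa B site. The Zbtb46 window (chr2:181424339-181424638, minus strand) lies inside the GENCODE span of the gene, whose 5′ end is at 181459426. Its AP-1 match is therefore not at that gene start.

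Among the migration and maturation genes, Ccr7 (chromosome 11, 99144196 to 99155077, GRCm38) had 0.210, 0.603 and 0 CPM in microglia 1, 2 and 3. In BMDM 1 to 5 it had 40.1, 5.54, 25.3, 29.0 and 0.276 CPM. BMDM 1 to 4 were above every microglia library, and BMDM 5, with 2 counts, lay within the microglia range. The means were 20.0 ± 16.7 CPM (SD, n = 5) and 0.271 ± 0.306 (n = 3), and edgeR gave a log2 fold change of 6.15 with an SE of 1.39 (adjusted p = 0.0346), or 70.8-fold. The value rests on 10 counts in the microglia libraries together, and without microglia 2 it was 7.11. The call was lost without any 1 of the 3 microglia libraries (adjusted p 0.156 to 0.309, edgeR) or without BMDM 1 (0.0844), BMDM 3 (0.0901) or BMDM 4 (0.0732), and with limma-voom (0.258).

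Markers of T cells, which also express Ccr7, were higher in BMDM in sum, but their order among BMDM libraries was not that of Ccr7 throughout. The T cell receptor complex gene Cd3d had 27.2, 6.90, 11.2, 12.1 and 0.138 CPM in BMDM 1 to 5 and 0 to 0.905 in microglia, so that BMDM 1 was highest and BMDM 5 lowest of the BMDM libraries, as for Ccr7. Trbc2, a constant segment of the T cell receptor, had 32.2, 7.02, 24.7, 33.4 and 1.80 CPM in BMDM 1 to 5. Cd4 had 9.72, 3.94, 12.47, 18.3 and 0.276. Both were highest in BMDM 4 and, like Ccr7, lowest in BMDM 5. Cd8b1 and Lck were also lowest in BMDM 5, while Cd3g and Trac were not. Cd3e, of the same complex as Cd3d, had 5.33, 5.66, 5.83, 2.23 and 7.19 CPM in BMDM 1 to 5. The cytokine receptor gene Il7r had 33.6, 12.7, 36.4, 30.1 and 63.4. Cd3e and Il7r were highest in BMDM 5, where Ccr7 was lowest. The 9 T cell markers summed to 155, 56.3, 121, 129 and 89.8 CPM in BMDM 1 to 5 and 15.8 to 24.8 in microglia, and none of the 9 was at 0 in all libraries of either group. Of the 89.8 CPM in BMDM 5, Il7r alone gave 63.4. Of the 8 of these tested, edgeR called 1 higher in BMDM, DESeq2 6 and limma-voom 0. The 1 was Trbc2, which rose by 4.10 on the log2 scale (SE 0.94, adjusted p = 0.0357, edgeR). That call held when BMDM 2 or BMDM 5 was left out and was lost without any other library, with library totals alone or with limma-voom. The 6 NK cell markers summed to 149.5 CPM in BMDM 1, 50.4 in BMDM 2 and 4.98 to 16.1 in BMDM 3 to 5, against 0.556 to 9.55 in microglia, and 0 of the 4 tested were called by edgeR (1 higher at an unadjusted p under 0.05, 1 with DESeq2 and 0 with limma-voom). Of 5 tested neutrophil markers edgeR called 1 higher and 0 lower (3 higher and 1 lower at an unadjusted p under 0.05), DESeq2 3 higher and 1 lower and limma-voom 0. The 1 was S100a8 (log2 fold change 4.04 and 4.80 without microglia 1, edgeR), a call lost without microglia 2, microglia 3, BMDM 1 or BMDM 4 or with limma-voom. Lists for B cells, mast cells and basophils, endothelial cells, oligodendrocytes and neurons had 0 calls by edgeR, DESeq2 or limma-voom (at an unadjusted p under 0.05 by edgeR, 1 endothelial gene higher and 1 oligodendrocyte gene lower). Whether T cells or NK cells passed the gates was not tested, nor was their part in the level of Ccr7.

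**Figure D2:**
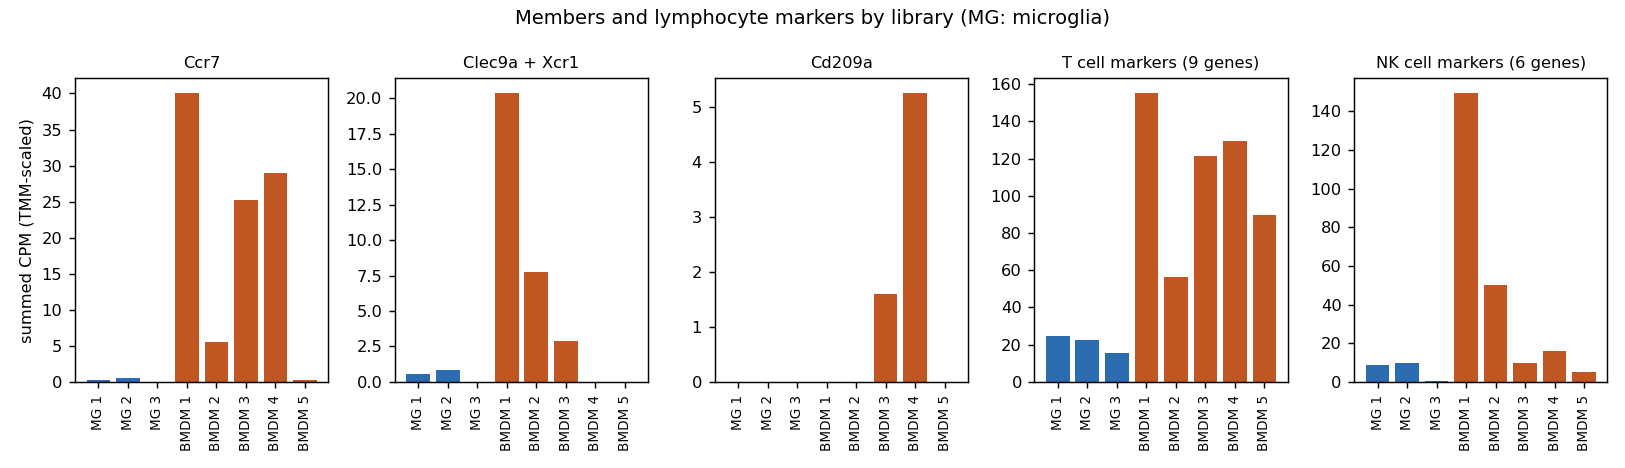
Bars give TMM-scaled CPM in each library for Ccr7, for Clec9a and Xcr1 summed, for Cd209a, and for lists of 9 T cell and 6 NK cell markers summed (linear axes from 0; microglia blue, BMDM orange). Ccr7 and the summed T cell markers were both highest in BMDM 1, then BMDM 4 and BMDM 3, but differed in the order of BMDM 2 and BMDM 5. In BMDM 5 they were at 0.276 and 89.8 CPM, and Il7r alone gave 63.4 of the 89.8. Clec9a and Xcr1 were counted in BMDM 1 to 3 but not in BMDM 4 or BMDM 5. Cd209a was counted in BMDM 3 and BMDM 4 alone.

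Fscn1 (chromosome 5, 142960343 to 142973185) was the 1 tested member with a negative fold change. It had 237 CPM in microglia 1, 134 in microglia 2 and 315 in microglia 3. In BMDM 1 to 5 it had 83.2, 50.2, 50.9, 79.6 and 49.6 CPM. All 5 BMDM libraries were below all 3 microglia libraries, as was the case for 8.66% of all genes tested. From 229 ± 91.2 CPM (SD, n = 3) in microglia to 62.7 ± 17.1 (n = 5) in BMDM, the log2 fold change by edgeR was -1.87 with an SE of 0.37 (adjusted p = 0.0167), or 3.65-fold lower. It was called with DESeq2 (adjusted p = 0.000991) and limma-voom (0.0179) as well, and lost without microglia 1 (0.0672), microglia 3 (0.0984) or BMDM 3 (0.0575). Within microglia the order of the libraries (3, 1, 2) was that of the summed level of the 10 microglia markers, at 4059, 2945 and 1442 CPM, an order over 3 libraries only. Among BMDM the order was not shared: these markers summed to 407, 398, 892, 513 and 216 CPM in BMDM 1 to 5. They were highest in BMDM 3, while Fscn1 was highest in BMDM 1, and both were lowest in BMDM 5. Markers of astrocytes and glioma cells were also higher in microglia in sum, at 154 to 226 CPM over 6 genes against 15.6 to 78.4 in BMDM. The lowest of the microglia sums, 154, was in microglia 3, the library highest for Fscn1. Sox2 and Olig2 overlapped between the groups, and Gfap and Aqp4 had higher means in BMDM. None of the 6 was at 0 in all libraries of either group. Of the 4 tested, 1 was lower in BMDM, the glutamate transporter gene Slc1a3, at -3.46 (SE 0.74, adjusted p = 0.0259, edgeR), a call lost without any 1 microglia library, without BMDM 1, BMDM 2 or BMDM 3, or with library totals alone. The part of those cells in the level of Fscn1 was not tested.

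The chemokines Ccl17 and Ccl22 lie near each other on chromosome 8 (94810453 to 94812036 and 94745590 to 94751699). Ccl17 had 42, 16, 4, 16 and 0 counts in BMDM 1 to 5, or 5.59, 1.97, 0.458, 2.55 and 0 CPM. In microglia 1, 2 and 3 it had 0, 2 and 0 counts. BMDM 1 to 4 were above microglia and BMDM 5 was not. Pooled over libraries the level was 39.1-fold higher in BMDM, with a 95% counting interval of 10.5 to 328 (exact, which covers counting error alone), while the test across libraries gave no call, with a log2 fold change of 4.79 by edgeR, an SE of 2.27 and an adjusted p of 0.373. Both values rest on the 2 counts of microglia 2, without which the fitted value was 7.32, against libraries at 0. DESeq2 gave an adjusted p of 0.0752. Ccl22 was counted in 3 libraries, at 4.13 CPM in BMDM 1, 6.06 in BMDM 3 and 0.736 in microglia 1, and at 0 in the other 5. It did not pass the filter on low counts, and in a fit without that filter its log2 fold change was 2.88 (SE 2.20, adjusted p = 0.476, edgeR). The chemokines thus shared BMDM 1 and BMDM 3, while Ccl17 alone was counted in BMDM 2 and BMDM 4. Ccr4, the gene of their receptor, was at 0.556 CPM in microglia 3, 4.28 in BMDM 5 and 0 in the other libraries.

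For type 1 dendritic cells, Xcr1 (chromosome 9, 123852315 to 123862029) had 111, 53 and 16 counts in BMDM 1, 2 and 3, which is 14.8, 6.53 and 1.83 CPM. It had 0 in BMDM 4 and BMDM 5, and 0, 0.805 and 0 CPM in microglia 1, 2 and 3. BMDM 1 to 3 were above all microglia and the other BMDM libraries were not. The log2 fold change was 4.08 (SE 2.21, adjusted p = 0.467, edgeR), with 3.45 without microglia 1 and 8.47 without microglia 2, the 1 microglia library with counts. In an edgeR fit of BMDM 1 to 3 alone against microglia it was 4.88 (SE 1.44, adjusted p = 0.0433). Left out of that fit are BMDM 4 and BMDM 5, where Xcr1 was at 0, and the Gm42418 share separates its groups. In that fit 2 of 7 tested members, Ccr7 and Xcr1, were higher and 1, Fscn1, was lower, at 6.40 and 4.88 and at -1.88 on the log2 scale, while 14.5% of all genes were called (6.35% higher, 8.11% lower). The ligand gene Xcl1, named here for its role, which lymphocytes make, was at 6.39, 0.862, 4.80, 8.91 and 0 CPM in BMDM 1 to 5 and at 0, 0 and 0.111 in microglia, and was called by DESeq2 but not by edgeR (adjusted p = 0.166).

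Clec9a (chromosome 6, 129408862 to 129424763) had 5.59, 1.23 and 1.03 CPM in BMDM 1, 2 and 3 and 0 in BMDM 4 and BMDM 5. Of the microglia libraries, microglia 1 had 0.578 CPM and the others 0. Its highest library was thus the highest for Xcr1, and both genes were at 0 in BMDM 4 and BMDM 5, where 0 counts allow up to 0.478 and 0.415 CPM (3 counts, counting error alone). The log2 fold change was 2.87 (SE 2.24, adjusted p = 0.681, edgeR), and 6.68 without microglia 1, against microglia libraries at 0. In the annotation, the span of the lectin gene Clec1b overlaps an exon of Clec9a on the same strand. Clec1b had 44, 6 and 0 counts in microglia 1, 2 and 3 and 15, 54, 0, 45 and 0 in BMDM 1 to 5. Gm43914, which lies within an intron of Clec9a on the same strand, had 25 counts, all in microglia 1, the 1 microglia library with Clec9a. The counts of Clec9a are therefore less certain, in microglia 1 above all.

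Cd209a (chromosome 8, 3743397 to 3748984), which encodes a relative of the human lectin DC-SIGN, followed another pattern. It had 14 counts (1.60 CPM) in BMDM 3, 33 counts (5.25 CPM) in BMDM 4 and 0 in the other 6 libraries. Without the filter on low counts the test across libraries gave an adjusted p of 0.312 (edgeR), and 3 of the 5 BMDM libraries were at 0 like microglia.

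Flt3 (chromosome 5, 147330741 to 147400489) had 7.59, 4.56, 4.69, 2.55 and 2.63 CPM in BMDM 1 to 5. It had 3.02 CPM in microglia 2 and 0 in microglia 1 and 3, where 0 counts allow up to 0.158 and 0.334. All 5 BMDM libraries had counts of it, and microglia 2 lay within their range. The log2 fold change was 2.13 (SE 1.63, adjusted p = 0.672, edgeR), and 8.37 without microglia 2 (adjusted p = 0.189), a value fitted against libraries at 0 that is no measure of size.

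The transcription factor genes showed no call. Zbtb46 (chromosome 2, 181387762 to 181459426) had 0.946, 0.101 and 3.11 CPM in microglia and 1.46, 0.493, 3.20, 9.87 and 0 in BMDM 1 to 5. BMDM 4 and, by a small margin, BMDM 3 were above all microglia libraries, and the other BMDM libraries were not. The log2 fold change of 1.11 with an SE of 1.67 (adjusted p = 0.865, edgeR) was -0.064 without BMDM 4. BMDM 4 was the library highest for both Zbtb46 and Cd209a, and also for Irf4, a factor of type 2 cells named after its values were seen, at 29.9 CPM against 0.138 to 9.72 in the other BMDM libraries. Of the other type 2 genes listed below, Notch2 and Cd226 were also highest in BMDM 4, and the rest were not. Clec10a was lowest of the BMDM libraries there, at 1.91 CPM, and Mgl2 was highest in BMDM 2 (49.1 CPM, with 12.4 in BMDM 4). Batf3 (chromosome 1, 191097847 to 191108945) was counted in all 8 libraries, at 10.2, 11.1 and 21.03 CPM in microglia and 15.05, 30.5, 17.8, 24.7 and 13.3 in BMDM 1 to 5. The groups overlapped, at 14.1 ± 6.02 CPM (SD, n = 3) and 20.3 ± 7.19 (n = 5), and the log2 fold change was 0.53 (SE 0.46, adjusted p = 0.730, edgeR). Batf3 did not share the pattern of Xcr1 and Clec9a, being at 24.7 and 13.3 CPM in BMDM 4 and BMDM 5 where they were at 0.

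Taken by library, the 8 members other than Fscn1 and Batf3, a grouping made after their values were seen, summed to 2.47, 4.73 and 3.11 CPM in microglia. In BMDM 1 to 5 they summed to 79.2, 20.3, 44.2, 49.2 and 2.90 CPM, so BMDM 5 lay within the microglia range and the other 4 above it. The number of the 10 members with a count was 9, 8, 10, 7 and 4 in BMDM 1 to 5 and 6, 7 and 3 in microglia. Thinning each library to 4151079 counts, with Gm42418 and mitochondrial rRNA left out, left an expected 9, 7.998, 9.99, 7 and 3.99 members with a count in BMDM and 5.87, 6.67 and 3 in microglia, which left the order of the libraries as it was.

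**Figure D3:**
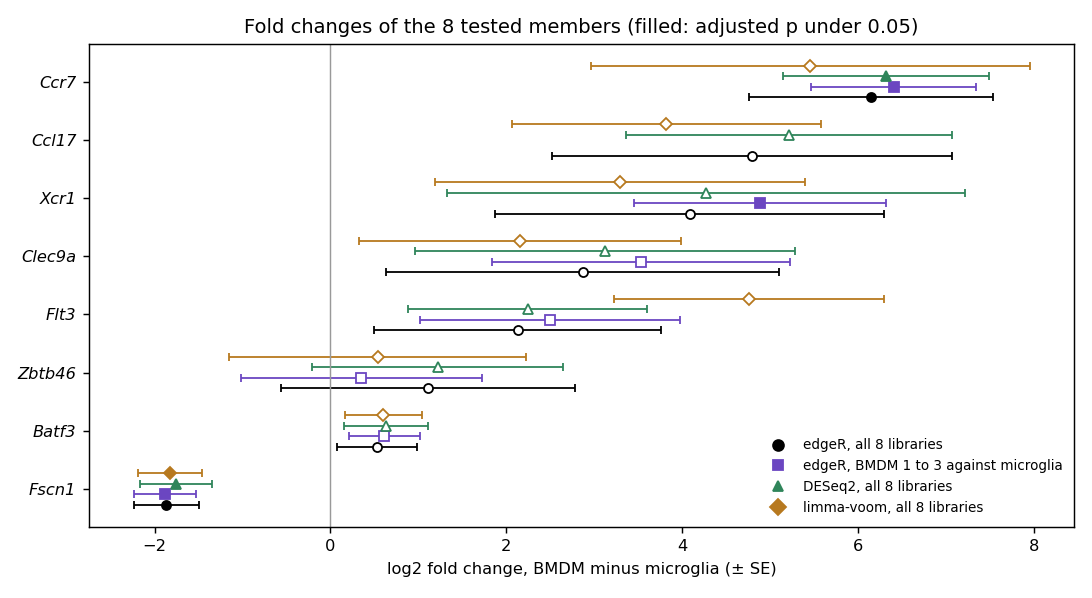
Log2 fold changes (BMDM minus microglia, ± SE) of the 8 tested members in 4 fits, with filled symbols where the adjusted p was under 0.05. Fscn1 was below 0 and called in all 4, Ccr7 was above 0 and called in 3, and Xcr1 was called only with BMDM 1 to 3, a fit in which Ccl17 did not pass the filter.

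Other genes of dendritic cells were read from lists of markers. Of 15 further genes of type 1 cells, 12 were tested, and edgeR called 1 higher and 0 lower, limma-voom 1 and DESeq2 2 higher, with a median log2 fold change of 0.36 beside 0.08 over all genes. The 1 was Nfil3, a transcription factor that type 1 cells need, which averaged 90.7 ± 41.4 CPM (SD) over 5 BMDM and 19.3 ± 3.52 over 3 microglia libraries and rose by 2.23 on the log2 scale (SE 0.46, adjusted p = 0.0215, edgeR). Its groups did not overlap, and the call was lost without any 1 microglia library or without BMDM 3 or BMDM 4 (adjusted p 0.0533 to 0.117). The factors Irf8 and Id2 were at -0.17 (SE 0.42) and 0.24 (SE 0.64), the small GTPase gene Rab7b at 1.48 (SE 0.56) and the adhesion gene Cadm1 at -0.96 (SE 0.41), none of them called by edgeR in all 8 libraries. Cadm1 was called lower by edgeR with BMDM 1 to 3 alone (-1.15, adjusted p = 0.0166) and without BMDM 5 (-1.33, adjusted p = 0.0275), and Rab7b higher without a filter on low counts (1.46, adjusted p = 0.0287). In Id2, BMDM 3 stood at 2058 CPM and BMDM 5 at 110.3, with 627 to 959 in the other BMDM libraries.

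Of 15 genes of type 2 and monocyte-derived dendritic cells, 13 were tested, and edgeR called 2 higher and 0 lower, DESeq2 4 higher and limma-voom 1 higher, with a median of 1.51. Ciita, the master regulator of class II histocompatibility genes, rose by 2.68 (SE 0.59, adjusted p = 0.0275, edgeR), from 5.01 to 12.7 CPM in microglia to 58.7 to 98.3 in BMDM 1 to 4, with 11.6 in BMDM 5. Tnip3, an inhibitor of NF-kappa B signaling, rose by 2.59 (SE 0.58, adjusted p = 0.0315, edgeR), from 6.56 to 9.86 CPM to 18.7 to 104 without overlap. The call of Ciita held without BMDM 5 and was lost without any other library, with library totals alone or with limma-voom (adjusted p 0.0563 to 0.181); that of Tnip3 was lost without any 1 microglia library, without BMDM 3 or BMDM 4, or with limma-voom (0.0656 to 0.169). Zeb2 and Klf4, which encode factors, and Rbpj, the mediator of Notch signaling, were at 0.73 (SE 0.58), -0.68 (SE 0.48) and 0.17 (SE 0.35), and the receptor gene Sirpa at -0.54 (SE 0.35), none called by edgeR in all 8 libraries, while Klf4 was called lower with BMDM 1 to 3 alone (-1.29, adjusted p = 0.0335). With BMDM 1 to 3 alone, Tnip3 was at 1.67 (adjusted p = 0.0166, edgeR). Itgax, the gene of CD11c, named after its values were seen, was at 1.51 (SE 0.38, adjusted p = 0.0614, edgeR) and above microglia in all 5 BMDM libraries, and it was called by DESeq2 and limma-voom.

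Of 20 genes of mature dendritic cells, 18 were tested and edgeR called 0 (2 higher and 2 lower at an unadjusted p under 0.05), limma-voom 0 and DESeq2 3, with a median of 0.30. DESeq2 called Cd40, a costimulatory receptor gene, and Ccl5 higher and Cd83 lower. Ccl19, a ligand of CCR7, had 0 counts in all 8 libraries, as had Ccl21a, the only gene of the ligand CCL21 that was looked up. The activation marker Cd83 and the costimulatory gene Cd86 were at -1.503 and -0.98 by edgeR (adjusted p = 0.105 and 0.203), each below microglia in all 5 BMDM libraries. The chemokine gene Ccl5 was at 2.60 (SE 0.74, adjusted p = 0.101, edgeR), and Nfkb2 at 0.23 (SE 0.53). Of 14 genes of FLT3 and GM-CSF signaling, 12 were tested and 0 called by edgeR (2 higher and 1 lower at an unadjusted p under 0.05), DESeq2 or limma-voom, with a median of 0.26, and Csf2 itself had 0 counts in all libraries. Of 12 genes of plasmacytoid dendritic cells, 8 were tested, and edgeR called 0 higher (2 at an unadjusted p under 0.05) and 1 lower, limma-voom 0 higher and 1 lower and DESeq2 2 higher and 1 lower, with a median of -0.95. The 1 was Siglech, which microglia also express, at -3.95 (SE 0.48, adjusted p = 0.000817, edgeR), while Bst2, Tcf4, Irf7 and Tlr7 were not called by edgeR, at 1.32, -0.69, 2.30 and -1.20. DESeq2 called Bst2 (adjusted p = 0.0442) and Irf7 (0.0178), and edgeR with BMDM 1 to 3 alone called both higher and Tcf4 lower (-1.39). With BMDM 1 to 3 alone, where 6.35% of all genes were higher and 8.11% lower, edgeR called 1 higher and 1 lower of 12 type 1 genes, 4 higher and 1 lower of 13 type 2 genes, 2 higher and 2 lower of 18 genes of mature cells, 2 higher and 1 lower of 12 signaling genes and 2 higher and 2 lower of 8 plasmacytoid genes. Among 8 partners of the chemokines and receptors, 2 were tested, and Cx3cr1, the fractalkine receptor, was lower at -1.89 (SE 0.44, adjusted p = 0.0396, edgeR), a call that held without microglia 2 or BMDM 5 and was lost without any other library or with library totals alone.

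**Figure D4:**
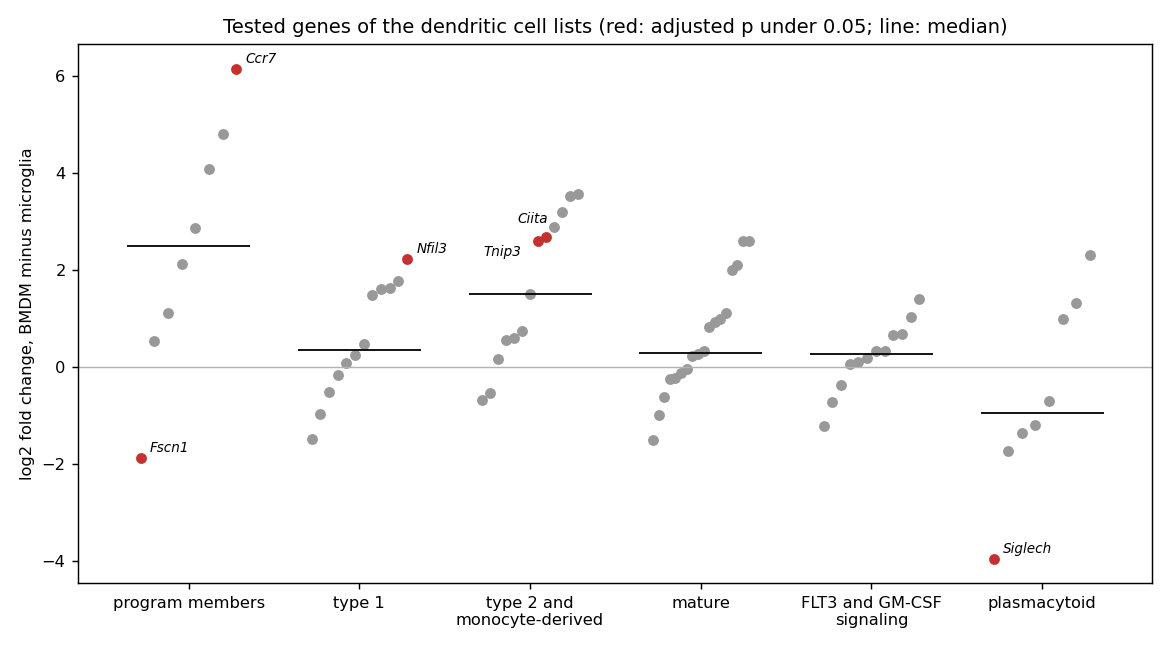
Log2 fold changes (BMDM minus microglia) of all tested genes of 6 lists, 1 point per gene, with called genes in red and named and a line at each list's median. In each list most genes were not called, and the medians ran from -0.95 (plasmacytoid) to 2.50 (the 8 tested members).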

How the data were processed

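The deposited table holds raw read counts per gene for 8 libraries, made from a 3′ mRNA kit (QuantSeq FWD) and single reads, per the labels' protocols. Per the submitters' processing notes, the authors used FastQC, cutadapt, STAR, featureCounts and DESeq2 with mm10; versions, settings and strand handling are not given in the sources used here. A 3′ kit gives counts that do not scale with transcript length, and levels are compared between libraries, not between genes. The 10 members and all lists were chosen with earlier results of these data known.

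Counts were fitted for all genes with edgeR 4.0.16 (R 4.3.3): filterByExpr (minimum count 10, total 15), TMM scaling and a robust quasi-likelihood test of BMDM minus microglia, Benjamini-Hochberg threshold 0.05. CPM are counts divided by the TMM-scaled library size, also for genes below the filter. A count of 0 allows up to 3 counts; intervals and floors cover counting error only. Depth was 5890406 to 16659154 counts. No 2 libraries of a group agreed within sampling noise (chi-square per degree of freedom at least 19.0). DESeq2 1.42.0, limma-voom (limma 3.58.1), other scalings and filters, a replicate block, BMDM 1 to 3 alone and each library left out were alternatives. Scripts were tested on simulated data with 50 changed genes per size. There the edgeR test recovered 0%, 16%, 38% and 44% of genes with log2 fold changes of 1, 2, 3 and 4. A gene not called may thus still differ between the groups. Named genes are all members, called genes of each list (at most 5 by size), and the 4 uncalled genes of highest mean CPM in each dendritic cell list, with defining markers of other cells. Coordinates are from GENCODE M21 (GRCm38), which the table's gene identifiers match.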

Additional observations from a re-analysis of the deposited data

Results flagged for a closer look

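In the 5 BMDM libraries, 44 genes were checked for 1 library far from the rest, which chance gives in about 1 of 20 such groups; 4 genes had one, 1 of them among the 10 members. Clec9a stood at 5.59 CPM in BMDM 1, with 1.23 in the next library. BMDM 3 stood apart in the other 3 genes. It had 349 CPM of the activation marker Cd83, with 156.0 in the next library, and 949 CPM of Cx3cr1, with 612.0 in the next. It had 11.2 CPM of the microglia marker Slc2a5, a fructose transporter gene, with 2.35 in the next.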

How the results depend on the processing

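Of the 10 members, 2 were called in all 8 libraries, 1 with limma-voom and 0 to 2 when 1 library was left out: 0 without microglia 1, microglia 3 or BMDM 3, and 1 (Fscn1) without microglia 2, BMDM 1 or BMDM 4. The calls over all genes, 317 in the edgeR fit, numbered 721 without a filter on low counts, 987 with DESeq2, 2340 with BMDM 1 to 3 alone, and 104 (without microglia 3) to 1138 (without BMDM 5) with 1 library left out. The fit with a replicate block gave 3223 calls (19.6% of genes) and 3 members, with Xcr1 at 5.69 (adjusted p = 0.0229, edgeR) beside Ccr7 and Fscn1. BMDM 4 and BMDM 5 have no microglia library of the same number, so they add nothing to the group difference in that fit. The numbers were not taken as pairs, since same-numbered libraries deviated together with r = 0.137, 0.0903 and 0.238, although each correlated best with its own number. Some uncalled log2 fold changes turned sign: Zbtb46 ranged from -0.064 to 2.37, Id2 from -0.33 to 0.52, Irf8 from -0.45 to 0.10, Nfkb2 from -0.16 to 0.60 and Rbpj from -0.0033 to 0.25 with 1 library left out. Id2 was -0.24 with limma-voom. Nfkb2 and Zeb2 were -0.51 and -0.45 with the replicate block and -0.36 and -0.44 with BMDM 1 to 3 alone. The cause was not tested. Members at a few counts per library are limited by depth.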

Other observations

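Relatives of Cd209a in the CD209 lectin family were sparse. Of 7 family genes, 2 were tested and 0 called by edgeR, DESeq2 or limma-voom (0 at an unadjusted p under 0.05 by edgeR). Cd209d had 2.40, 2.96, 2.75, 2.23 and 0 CPM in BMDM 1 to 5 and 0.421, 0.503 and 0 in microglia, so BMDM 1 to 4 were above microglia, with no call (log2 fold change 2.68, SE 1.88). Cd209f was counted in 4 of 5 BMDM libraries (2.17 to 6.65 CPM) and in 2 of 3 microglia libraries (1.52 and 1.21), and Cd209b and Cd209c had 0 counts in all 8. The genes around Ccl17 and Ccl22 on chromosome 8 did not pass the test either: of 7 genes, 5 were tested and 0 called by edgeR, DESeq2 or limma-voom (0 at an unadjusted p under 0.05 by edgeR). Their neighbour Cx3cl1, the ligand of CX3CR1, had 1.26 CPM at most (BMDM 3).

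Among 7 genes of the families of Zbtb46 and Batf3, all tested, edgeR and limma-voom called 0 (edgeR at an unadjusted p under 0.05: 2 higher, 1 lower), while DESeq2 called 2 higher and 1 lower. The 1 lower, Zbtb20, was at 107 to 126 CPM in microglia and 42.5 to 74.5 in BMDM without overlap (log2 fold change -1.17, SE 0.31, adjusted p = 0.081 by edgeR). The 2 higher with DESeq2 were Zbtb7b and Batf2, at 1.19 and 1.40 by edgeR. These genes were named after their values were seen.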
